A study of Homo sapiens with 3 samples.

Results

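The arms of 3 pairs of microRNA (miRNA) hairpins that lie on opposite strands of the same DNA were followed: MIR338 with MIR3065, MIR423 with MIR3184, and MIR374B with MIR374C. The 10 mature arms (hsa-miR-338-3p, hsa-miR-338-5p, hsa-miR-3065-5p, hsa-miR-3065-3p, hsa-miR-423-3p, hsa-miR-423-5p, hsa-miR-3184-5p, hsa-miR-3184-3p, hsa-miR-374b-5p and hsa-miR-374c-3p, written below without the species prefix) were taken by name out of 2588 listed human miRNAs. Small RNA was sequenced from SK-MEL-2 cells, a melanoma line grown in RPMI-1640 with fetal bovine serum. Cells were untreated (control), or received 3 min or 5 min of a nonthermal plasma jet, an ionised gas that heats its target little, and were collected on Day 2. Each of the 3 groups was 1 library, so there is no spread between replicates, no test was possible, and every ratio compares libraries rather than conditions. All bracketed ranges are exact 95% intervals that cover counting error only.

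A miRNA gene is transcribed into RNA that folds back into a hairpin, which the enzymes Drosha and Dicer cut into a short duplex. Either strand of that duplex, the 5p or the 3p arm, can be loaded into an Argonaute protein, where it pairs with target mRNAs mainly through its seed, bases 2 to 8. Where both strands of a locus are transcribed, the antisense RNA can fold into a hairpin as well, and its arms are then near-complete complements of the sense arms with seeds of their own. A read of such an arm differs from a read of its partner in strand and, where the ends of the arms are offset, by a few bases in position. Whether strand was used in counting is not given in the sources used here, so reads of overlapping partners cannot be told apart on the counts alone.

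The 6 hairpins are shown with both mature arms in capitals, because the position of an arm opposite its partner bears on every comparison made here. Sequences are from RefSeq on GRCh38.p14, written 5′ to 3′ on each hairpin's own strand. MIR338 lies at chr17:81125883-81125949 on the minus strand, in an intron of AATK on that strand. MIR3065 lies at chr17:81125877-81125955 on the plus strand. MIR423 lies at chr17:30117079-30117172 on the plus strand and overlaps an exon of NSRP1. MIR3184 lies at chr17:30117086-30117160 on the minus strand, inside an exon of the non-coding AC104984.5. MIR374B lies at chrX:74218547-74218618 on the minus strand, in an intron of FTX, a long non-coding RNA of the X-inactivation centre, and MIR374C at chrX:74218549-74218618 on the plus strand. Host genes are from GENCODE 29.
MIR338: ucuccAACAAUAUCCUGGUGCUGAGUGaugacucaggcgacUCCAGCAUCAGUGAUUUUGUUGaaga
MIR3065: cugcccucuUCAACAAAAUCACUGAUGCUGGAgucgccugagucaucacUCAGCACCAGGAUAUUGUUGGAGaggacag
MIR423: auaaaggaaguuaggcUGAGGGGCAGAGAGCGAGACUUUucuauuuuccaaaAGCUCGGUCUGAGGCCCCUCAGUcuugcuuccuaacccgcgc
MIR3184: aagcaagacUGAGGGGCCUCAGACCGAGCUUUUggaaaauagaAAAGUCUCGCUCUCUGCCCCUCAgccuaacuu
MIR374B: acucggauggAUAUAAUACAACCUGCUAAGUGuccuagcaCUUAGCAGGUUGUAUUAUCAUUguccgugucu
MIR374C: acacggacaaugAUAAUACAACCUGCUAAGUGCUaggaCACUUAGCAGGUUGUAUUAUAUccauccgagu

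The mature arms are shown next, in partner order, with the seed in capitals. A 5p arm faces the 3p arm of the hairpin on the other strand. The pair miR-374b-3p and miR-374c-5p, not among the 10, completes the third locus.
miR-338-3p: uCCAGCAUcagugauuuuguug
miR-3065-5p: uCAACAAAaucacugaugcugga
miR-338-5p: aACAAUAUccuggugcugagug
miR-3065-3p: uCAGCACCaggauauuguuggag
miR-423-3p: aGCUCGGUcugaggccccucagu
miR-3184-5p: uGAGGGGCcucagaccgagcuuuu
miR-423-5p: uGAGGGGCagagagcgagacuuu
miR-3184-3p: aAAGUCUCgcucucugccccuca
miR-374b-5p: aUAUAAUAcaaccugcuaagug
miR-374c-3p: cACUUAGCagguuguauuauau
miR-374b-3p: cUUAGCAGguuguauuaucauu
miR-374c-5p: aUAAUACAaccugcuaagugcu

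Partners overlapped as reverse complements over 18 to 23 bases. The positions of miR-423-5p and miR-3184-3p coincided over all 23 bases, and those of miR-374b-5p and miR-374c-3p over all 22. miR-338-3p and miR-3065-5p shared 22 bases and differed by 1 base at 1 end. The ends of miR-423-3p and miR-3184-5p were offset by 3 and 2 bases, those of miR-338-5p and miR-3065-3p by 3 and 4, and those of miR-374b-3p and miR-374c-5p by 4 at each end.

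The arms also resembled each other on the same strand sense. miR-423-5p and miR-3184-5p, the 5p arms of partner hairpins, began with the same 8 bases and so shared the seed GAGGGGC, which no other listed miRNA with a RefSeq sequence carried. The 5p arms miR-374b-5p and miR-374c-5p shared a run of 20 bases and the 3p arms miR-374b-3p and miR-374c-3p a run of 18, so these counts are uncertain in a second way, since reads trimmed by a few bases can match either arm. Their seeds nevertheless differed, because the shared runs are shifted. In the MIR338 and MIR3065 arms the longest run shared on the same side of the hairpin was 5 or 6 bases.

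**Figure D1:**
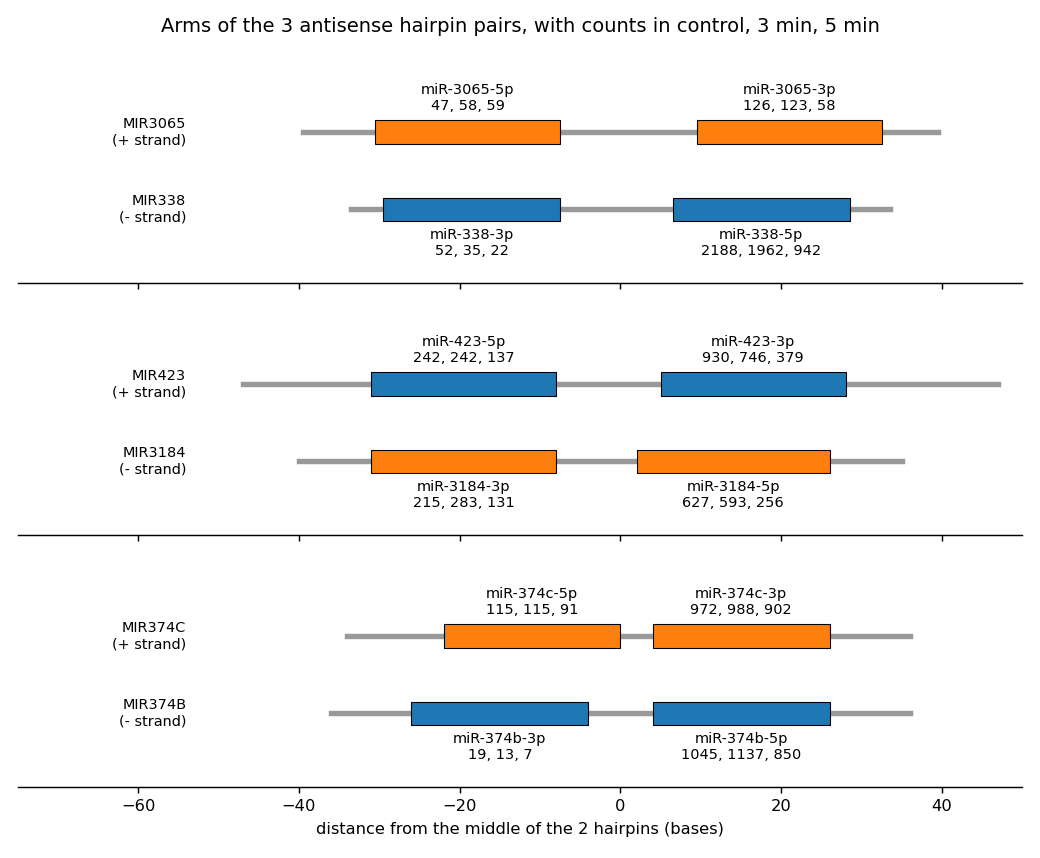
Map of the 3 loci with distance in bases from the middle of each hairpin pair; grey lines are hairpins, blue boxes are arms of MIR338, MIR423 and MIR374B, orange boxes are arms of their antisense partners, and the numbers are counts in control, 3 min and 5 min. miR-423-5p and miR-374b-5p lie exactly opposite their partners, whereas miR-338-5p is offset from miR-3065-3p by 3 and 4 bases.

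The libraries held 1045482 counts in control, 966943 after 3 min and 615645 after 5 min, so that 1 count was worth 0.956, 1.03 and 1.62 CPM (the count scaled to its library's total). All 10 arms met the requirement of a mean of at least 20 counts, which 231 of the listed miRNAs met. Together the 10 held 0.616%, 0.638% and 0.607% of the counts. As lineage markers, miR-204-5p had 2608, 2535 and 1257 counts and miR-211-5p 128, 97 and 65, while miR-514a-3p, miR-508-3p and miR-509-3p of the melanocytic X-linked cluster were at 0 (a floor of 3 counts). Of the oligodendrocyte and neural markers, set here because miR-338 is known from those cells, miR-9-5p had 16885, 14199 and 11140 counts, and miR-124-3p and miR-219a-2-3p were at 0. The liver marker miR-122-5p had 114, 117 and 76 counts. The 7 blood, epithelial and muscle markers summed to 13, 23 and 38 counts, so they were scarce, though their sum took a larger share after plasma. Most of the 5 min sum was miR-200c-3p (6, 8 and 17 counts) and miR-1-3p (0, 3 and 15). The blood marker miR-142-3p had 1, 4 and 4 counts, and the epithelial miR-141-3p 1, 0 and 1. Others did not rise after 5 min: miR-451a had 4, 8 and 1 counts, miR-133a-3p 1, 0 and 0, and miR-223-3p was at 0. The part of these markers in the results was not tested.

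The arms spanned a wide range of levels. miR-338-5p was the most abundant, at 2093 CPM in control (2006 to 2182), 2029 CPM in the 3 min library (1940 to 2121) and 1530 CPM in the 5 min library (1434 to 1631), rank 43, 44 and 49 of the 231. Next in control came miR-374b-5p with 999.5 CPM and miR-374c-3p with 930, followed by miR-423-3p at 890 and miR-3184-5p at 600. Their intervals show that miR-374b-5p, miR-374c-3p and miR-423-3p are near neighbours in this order: 940 to 1062, 872 to 990 and 833 to 949. miR-423-5p at 231 CPM (203 to 263) and miR-3184-3p at 206 (179 to 235) also overlapped. miR-3065-3p had 121 CPM (100.4 to 143). The scarcest were miR-338-3p at 49.7 CPM (37.1 to 65.2) and miR-3065-5p at 44.96 (33.03 to 59.8), again not separated by counting error. Ligation of adapters to RNA ends favours some sequences, so levels of different arms are not molar amounts.

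**Figure D2:**
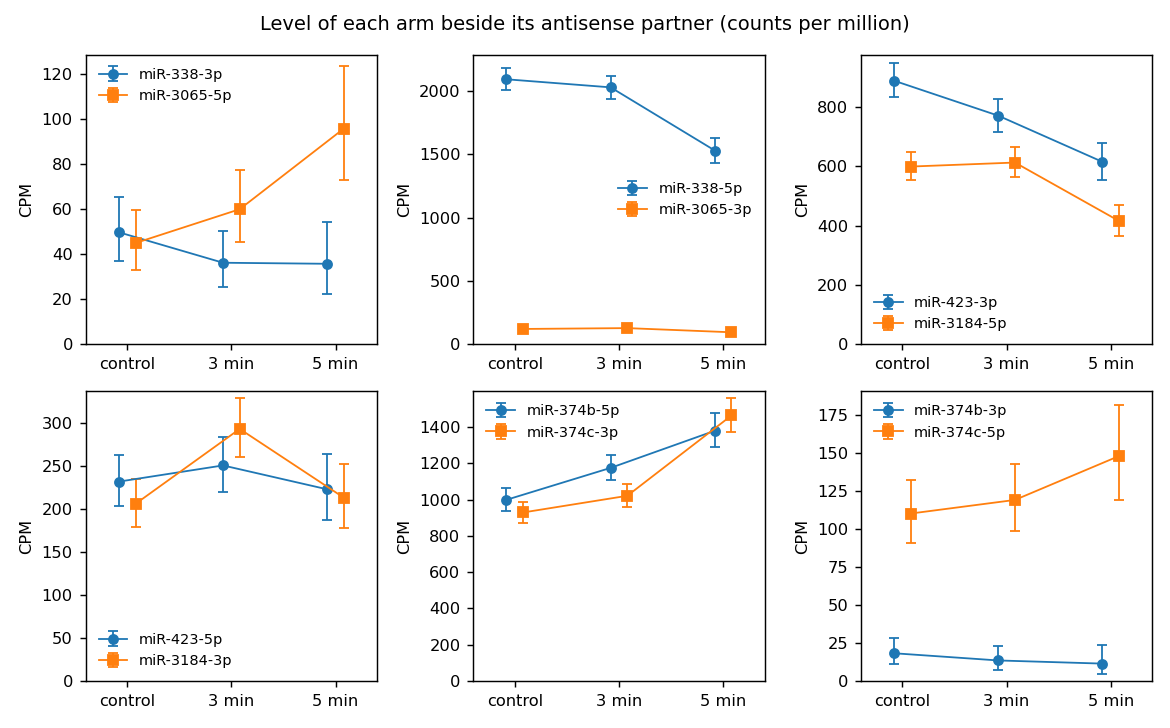
CPM of each arm in the 3 libraries, 1 panel per antisense partner pair, each with its own vertical axis from 0; points are single libraries and bars exact 95% counting intervals. miR-3065-5p stands at 44.96, 59.98 and 95.8 CPM while its partner miR-338-3p stands at 49.7, 36.2 and 35.7; the 2 arms miR-374b-5p and miR-374c-3p are highest after 5 min.

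Between plasma and control, the 10 arms lay on both sides of 1 at both exposures, as did the 231 miRNAs. Ratios were scaled by TMM, a trimmed mean of ratios between libraries. After 3 min none of the 10 was 1.5-fold higher or lower, while 6.93% of the 231 miRNAs were past 1.5-fold upward and 5.19% downward; none was past 2-fold, against 2.16% upward and 0.866% downward. The counting interval lay above 1 for miR-374b-5p, miR-3184-3p and miR-374c-3p (3 of 10, against 23.4%) and below 1 for miR-423-3p (1 of 10, against 14.3%). After 5 min miR-3065-5p and miR-374c-3p were at least 1.5-fold higher (2 of 10, against 17.3% of the 231) and none was 1.5-fold lower (against 11.7%). Past 2-fold stood miR-3065-5p alone, upward, against 9.52% of the 231, and no arm downward, against 3.46%. The upward shares after 5 min are near the background, and with 10 arms a count of 0 is not far from the other shares. The median log2 ratio of the 10 arms was 0.11 after 3 min and -0.22 after 5 min, beside 0.05 over the 231 miRNAs at either exposure. The counting interval excluded 1 after 5 min for 3 arms above control (background 29%) and 3 below it (background 26%). With TMM over all 2588 listed miRNAs, which lowers every 5 min log2 ratio by 0.17, 27 of the 231 were past 1.5-fold upward and 40 downward, where the scaling used here gave 40 and 27. At 2-fold it gave 18 and 16, where the scaling used here gave 22 and 8. The calls among the 10 arms moved with it: miR-423-3p (0.610 times control), miR-3184-5p (0.612), miR-338-3p (0.634) and miR-338-5p (0.645) then passed 1.5-fold downward after 5 min, 4 of 10, while miR-374c-3p (1.39) missed it upward and miR-3065-5p (1.88) missed 2-fold.

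Of the MIR338 and MIR3065 arms, the abundant miR-338-5p and its partner were both lower after 5 min, while miR-338-3p and miR-3065-5p moved apart. miR-338-5p, the arm that took nearly all counts of MIR338 in these cells, had 2188 counts in control, 1962 after 3 min and 942 after 5 min. It was 1.38-fold lower after 5 min than in control (1.28 to 1.49), and within counting error of control after 3 min (1.02-fold lower, 0.961 to 1.09; 0.940 times control with TMM over all listed miRNAs, 0.884 to 0.9998). Its partner miR-3065-3p had 126, 123 and 58 counts, 1.29-fold lower after 5 min with an interval of 0.937 to 1.79 that includes 1; with TMM over all listed miRNAs its ratio to control was 0.690 (0.496 to 0.948), which excludes 1. miR-338-5p stood above miR-3065-3p in every library by a similar factor: 17.4, 15.95 and 16.2 counts per count.

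The other partners of this locus did not keep their proportion. miR-338-3p, which in mouse promotes the maturation of oligodendrocytes, had 52, 35 and 22 counts, and was 1.40-fold lower after 5 min with an interval of 0.837 to 2.43 that includes 1. miR-3065-5p had 47, 58 and 59 counts, which in the shallower 5 min library is 2.12-fold higher than in control (1.42 to 3.17). The share of miR-3065-5p in the sum of the 2 was 47.5% in control (37.3 to 57.8), 62.4% in the 3 min library (51.7 to 72.2) and 72.8% in the 5 min library (61.8 to 82.1). The odds of miR-3065-5p over miR-338-3p, which need no scaling, were 2.95 times those of control after 5 min (1.52 to 5.87) and 1.83 times after 3 min (0.991 to 3.40). Between 5 min and 3 min the factor was 1.61 (0.811 to 3.26). These arms rest on 22 to 59 counts a library. In the 5 min library miR-3065-5p had 59 counts against 22 of miR-338-3p. The 2 arms differ in position by 1 base at 1 end, and the part of strand use in counting was not tested.

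Within MIR3065 the balance of arms shifted too. Of its counts, 72.8% came from the 3p arm in control (65.6 to 79.3), 67.96% in the 3 min library (60.6 to 74.7) and 49.6% in the 5 min library (40.2 to 58.97). The odds of its 3p over its 5p arm were 0.368 times those of control after 5 min (0.217 to 0.619) and 0.792 times after 3 min (0.487 to 1.28). Within MIR338 the 3p share stayed at 2.32%, 1.75% and 2.28%, with overlapping intervals of 1.74 to 3.03, 1.22 to 2.43 and 1.44 to 3.43. miR-338-3p is the arm usually studied, but in these libraries miR-338-5p outnumbered it 42.1, 56.1 and 42.8 to 1.

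Of the MIR423 and MIR3184 arms, miR-423-3p and miR-3184-5p, which face each other, were lower after 5 min, and the intervals of the other facing arms held 1. miR-423-3p had 930 counts in control, 746 after 3 min and 379 after 5 min, and stood 1.46-fold below control after 5 min (1.29 to 1.65) and 1.14-fold below it after 3 min (1.04 to 1.26). Its partner miR-3184-5p had 627, 593 and 256 counts and was 1.45-fold lower after 5 min (1.25 to 1.69). The partners thus differed from control after 5 min by nearly the same factor, and the ratio of their odds was 1.002 (0.826 to 1.21). After 3 min miR-3184-5p was 1.03-fold higher (0.921 to 1.16; 0.992 times control with TMM over all listed miRNAs), and its odds over miR-423-3p were 1.18 times those of control (1.01 to 1.37).

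On the other side, miR-423-5p, a widely expressed miRNA studied in blood plasma as a marker of heart failure, had 242, 242 and 137 counts. It lay within counting error of control at both exposures, at 0.95 times the control after 5 min (0.768 to 1.18) and 1.09 times after 3 min (0.909 to 1.31). miR-3184-3p, exactly opposite it, had 215, 283 and 131 counts. It was 1.44-fold higher than control after 3 min (1.20 to 1.72) and at 1.03 times the control after 5 min (0.820 to 1.28; 0.913 with TMM over all listed miRNAs), so that its highest level was in the 3 min library. The share of miR-3184-3p in the sum of these arms was 47.0% (42.4 to 51.7), 53.9% (49.5 to 58.2) and 48.9% (42.8 to 55.0), and each interval held 50%. Its odds over miR-423-5p were 1.08 times those of control after 5 min (0.787 to 1.47) and 1.32 times after 3 min (1.02 to 1.71).

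The arms of each of these hairpins therefore differed from control by unequal factors, and both exposures share the control library. The odds of miR-423-3p over miR-423-5p were 0.72 times those of control after 5 min (0.562 to 0.924) and 0.80 times after 3 min (0.652 to 0.988). The odds of miR-3184-3p over miR-3184-5p were 1.49 times those of control after 5 min (1.14 to 1.953) and 1.39 times after 3 min (1.12 to 1.73). Between 5 min and 3 min the factors were 0.897 for MIR423 (0.699 to 1.15) and 1.07 for MIR3184 (0.824 to 1.39), so both intervals held 1. The 3p arm made up 79.4%, 75.5% and 73.4% of MIR423 counts but 25.5%, 32.3% and 33.9% of MIR3184 counts. In both hairpins the dominant arm is the one on the same side of the locus, and miR-423-5p and miR-3184-5p, which share a seed, lie on opposite sides of it.

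The MIR374B and MIR374C arms among the 10 were both above control after 5 min, and by less after 3 min. miR-374b-5p had 1045 counts in control, 1137 after 3 min and 850 after 5 min, 1.37 times control after 5 min (1.25 to 1.502) and 1.19 times control after 3 min (1.09 to 1.29). miR-374c-3p, exactly opposite it, had 972, 988 and 902 counts, 1.56 times control after 5 min (1.43 to 1.71) and 1.11 times control after 3 min (1.01 to 1.21). The 3 min interval of miR-374c-3p held 1 with DESeq2 size factors (1.08, 0.991 to 1.19) and with TMM over all listed miRNAs (1.07, 0.974 to 1.17). The share of miR-374c-3p in their sum was 48.2% (45.99 to 50.4), 46.5% (44.4 to 48.6) and 51.5% (49.1 to 53.8), so the interval held 50% in 2 of the 3 libraries. Its odds over miR-374b-5p were 1.14 times those of control after 5 min (1.002 to 1.2995) and 0.93 times after 3 min (0.825 to 1.06). Between 5 min and 3 min the factor was 1.22 (1.07 to 1.39).

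The minor arms of this locus were scarcer. miR-374c-5p, which shares 20 bases with miR-374b-5p, had 115, 115 and 91 counts and was 1.33-fold higher after 5 min (1.001 to 1.77). miR-374b-3p had 19, 13 and 7 counts, a mean of 13.0, and was too scarce for a ratio here. The odds of miR-374c-5p over miR-374b-3p were 2.14 times those of control after 5 min (0.818 to 6.30) and 1.46 times after 3 min (0.649 to 3.38). No shift from control in the balance of these arms was thus detectable at this depth. miR-421, made from a hairpin at chrX:74218377-74218461 also in an FTX intron, beside MIR374B, had 59, 53 and 35 counts with a 5 min ratio to control of 0.9996 (0.638 to 1.54). The family member miR-374a-5p had 2, 2 and 0 counts, and miR-374a-3p, miR-545-5p and miR-545-3p, whose hairpins lie elsewhere in FTX, were at 0 in all 3 libraries, where a floor of 3 counts allows up to 2.87, 3.10 and 4.87 CPM. Of the 7 further miRNAs listed for this locus and family, 2 met the count requirement, and neither was 1.5-fold from control at either exposure. Over the 231 miRNAs, 6.93% were past 1.5-fold upward and 5.19% downward after 3 min, and 17.3% and 11.7% after 5 min. With 2 miRNAs, a count of 0 is not set apart from these shares.

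**Figure D3:**
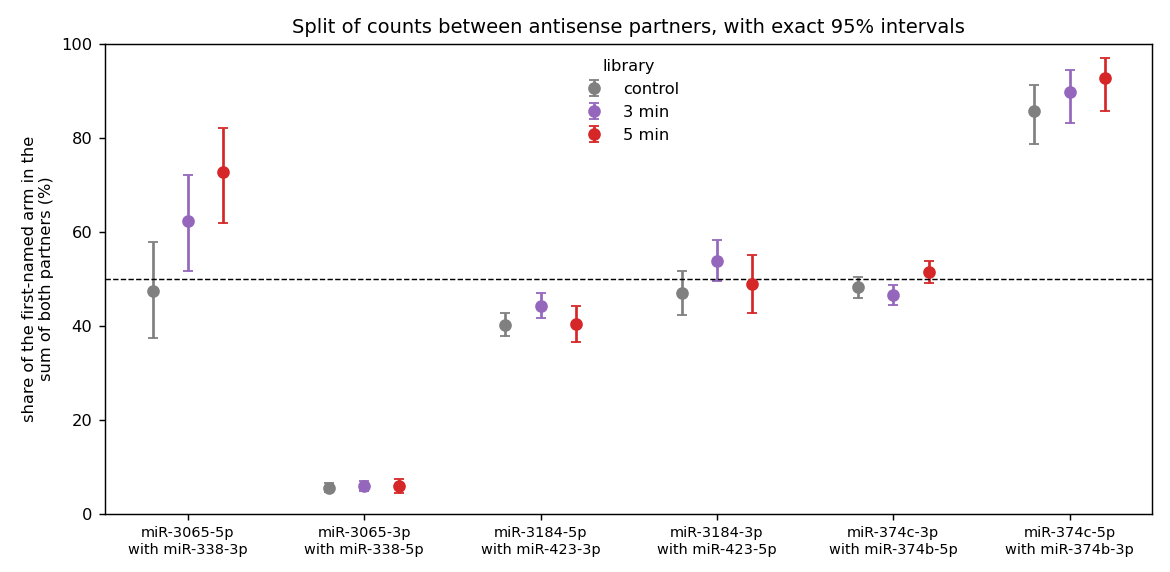
Share of the antisense arm in the sum of an arm and its partner, in percent, for 6 partner pairs and the 3 libraries, with exact 95% intervals; the dashed line is an even split. The shares of miR-3184-3p and miR-374c-3p lie between 46.5% and 53.9%, those of miR-3065-3p between 5.45% and 5.90%, and that of miR-3065-5p is 47.5%, 62.4% and 72.8% in control, 3 min and 5 min.

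Set side by side, the split between partners followed no single value. The pairs whose positions coincide, miR-423-5p with miR-3184-3p and miR-374b-5p with miR-374c-3p, were close to an even split: the interval held 50% in 5 of their 6 values. Among pairs with offset ends, miR-3184-5p held 40.3%, 44.3% and 40.3% with miR-423-3p, miR-3065-3p held 5.45%, 5.90% and 5.80% with miR-338-5p, and miR-374c-5p held 85.8%, 89.8% and 92.9% with miR-374b-3p. miR-3065-5p and miR-338-3p, 1 base apart at 1 end, were near even in control and not in the plasma libraries. With 6 pairs in 3 loci this is a description of these libraries, and the part of strand use in counting was not tested.

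Partners were compared with the arms of 1 hairpin in how far their log2 ratios differed. After 5 min the 5 partner pairs among the 10 arms differed by a median of 0.11 (lowest 0.003, highest 1.57), the largest being miR-338-3p against miR-3065-5p. The arms of the 5 hairpins of these loci that had both arms past the count requirement differed by a median of 0.47 (lowest 0.025, highest 1.45). Over 51 such hairpins of the series, these 5 included, the median was 0.45. After 3 min the medians were 0.24 for partners, 0.34 for arms of these hairpins and 0.31 over the 51. Both exposures share the control library. Between 5 min and 3 min the order was the other way, with 0.29 for partners and 0.21 for arms of these hairpins, beside 0.38 over the 51, so partners were not closer than arms of 1 hairpin in every comparison.

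**Figure D4:**
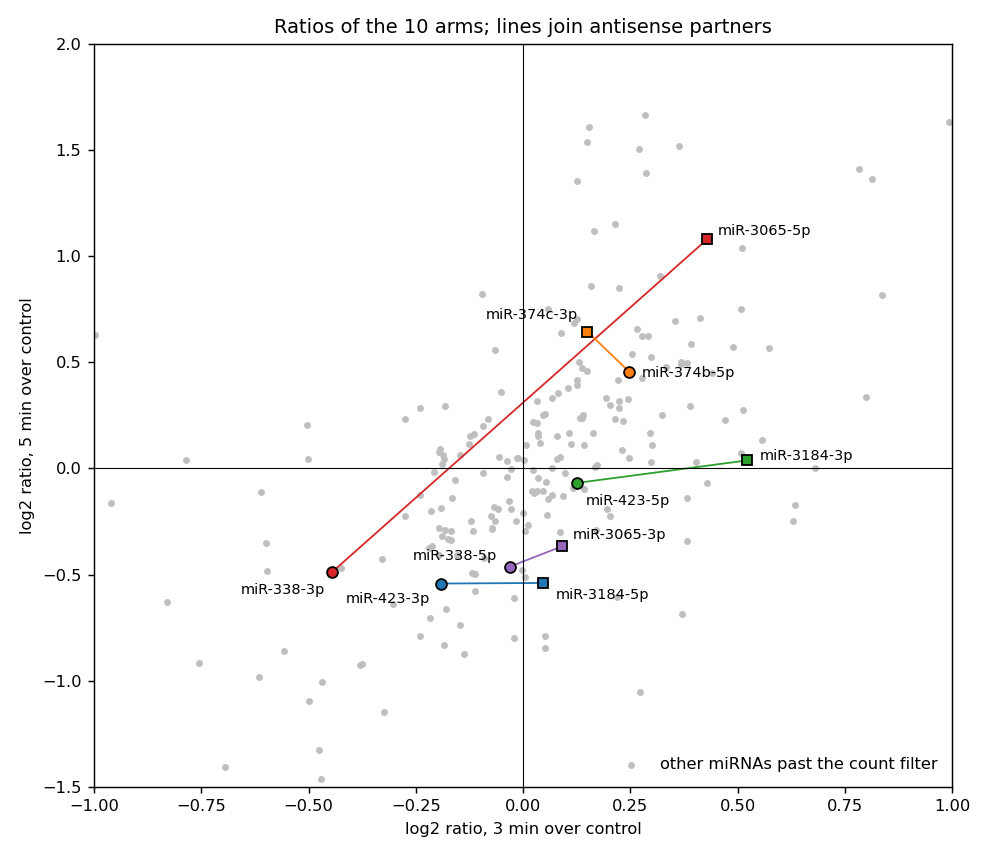
Log2 ratio to control after 3 min (horizontal) and 5 min (vertical), with the 10 arms coloured by partner pair (circles for arms of MIR338, MIR423 and MIR374B, squares for their partners) and joined by lines, and other miRNAs past the count requirement in grey, 10 of which lie outside the axes. The longest line joins miR-338-3p (-0.45 and -0.49) to miR-3065-5p (0.43 and 1.08); both axes share the control library.

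Likeness was also measured as the distance between pairs of log2 ratios (3 min and 5 min over control) among the 230 other miRNAs. For miR-3065-3p its partner miR-338-5p ranked 7th, and for miR-338-5p the partner ranked 10th. For miR-3184-5p the partner miR-423-3p ranked 11th, and for miR-423-3p the partner ranked 21st. For miR-374c-3p the partner miR-374b-5p ranked 14th, and for miR-374b-5p the partner ranked 27th. miR-3184-3p ranked 105th for miR-423-5p, but miR-423-5p ranked 30th for miR-3184-3p, at a distance of 0.41. At the far end, miR-3065-5p ranked 210th for miR-338-3p and miR-338-3p 197th for miR-3065-5p, at a distance of 1.80. The nearest of all was miR-204-5p for miR-3065-3p (distance 0.067), miR-384 for miR-338-5p (0.034), miR-425-5p for miR-3184-5p (0.049), miR-99b-5p for miR-423-3p (0.088) and miR-30b-5p for miR-374c-3p (0.050). For the rest it was miR-340-5p for miR-338-3p (0.027), miR-5701 for miR-3065-5p (0.091), miR-28-3p for miR-423-5p (0.026), miR-9-3p for miR-3184-3p (0.039) and miR-199b-3p for miR-374b-5p (0.042). These orders rest on 3 libraries and say nothing of shared control.

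Between 5 min and 3 min, where the control library enters only the scaling and the count requirement, the arms again went both ways. Arms of the MIR338 and MIR3065 locus lay on both sides. miR-3065-5p was 1.57-fold higher after 5 min (1.07 to 2.30), miR-374c-3p 1.41-fold (1.29 to 1.54) and miR-374b-5p 1.15-fold (1.05 to 1.26). On the lower side stood miR-3184-5p at 1.5002-fold (1.29 to 1.74), miR-3184-3p at 1.40-fold (1.13 to 1.73), miR-338-5p at 1.35-fold (1.25 to 1.46) and miR-423-3p at 1.27-fold (1.13 to 1.45). Past 1.5-fold, 1 arm was thus higher (background 13%) and 1, miR-3184-5p just at that edge, lower (background 8.66%); none was past 2-fold either way (background 6.49% and 0.866%). With TMM over all listed miRNAs miR-3065-5p missed 1.5-fold, and miR-3184-5p (0.617) and miR-3184-3p (0.661) passed it downward. The counting interval lay above 1 for 3 arms (background 25.1%) and below 1 for 4 (background 24.7%). With TMM over all listed miRNAs the intervals of miR-374b-5p (1.07, 0.976 to 1.17) and miR-3065-5p (1.45, 0.994 to 2.13) held 1, and that of miR-3065-3p lay below it (0.674, 0.484 to 0.928). Summed over all arms of a locus, MIR338 with MIR3065 was 1.32-fold lower after 5 min than in control (1.23 to 1.42), MIR423 with MIR3184 was 1.32-fold lower (1.22 to 1.43), and MIR374B with MIR374C was 1.45-fold higher (1.36 to 1.54). After 3 min the same sums lay at 0.985 (0.929 to 1.04), 1.01 (0.948 to 1.08) and 1.14 (1.08 to 1.21) times the control. The intervals of the MIR338 and MIR423 loci thus held 1 after 3 min and not after 5 min. Of the MIR338 and MIR3065 counts after 5 min, 942 of 1081 were miR-338-5p, so this sum does not show the rise of miR-3065-5p.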

How the data were processed

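Each deposited file holds raw read counts by mature miRNA name for 1 of the 3 libraries. Per the labels' protocols, Trizol RNA was made into libraries with a NEBNext small-RNA kit. Bowtie2, bedtools and edgeR are named in the submitters' processing notes without version or role. Of genome build, miRNA annotation, trimming, multi-mapping and strand, the sources used here give nothing. Without molecular identifiers, PCR copies count as reads.

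Ratios were scaled by TMM (edgeR 4.0.16, R 4.3.3) over the 231 miRNAs averaging 20 counts or more, with factors of 1.000, 0.991 and 1.01 for control, 3 min and 5 min. Intervals are exact: Clopper-Pearson for shares, the binomial split of counts for ratios and the conditional interval for odds ratios (scipy 1.17.1). With 1 library per group no test was run. On counts simulated for 5 min against control with counting error alone, 94.4% of 231 intervals held the true ratio. The simulation had no spread between cultures, no PCR copies and no scaling error, so it checks only the arithmetic of the intervals. Alternatives were other scalings, other count filters, partner sums, other denominators and 0.5 added to each count. RefSeq sequences matched 2281 of 2588 listed miRNAs and all 10 arms. Named were the 10 arms, the miR-374 and FTX miRNAs, other antisense pairs and the 3 nearest miRNAs by log2 ratios, of which the nearest is given. The members and lists were chosen with earlier results of these data known.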

Additional observations from a re-analysis of the deposited data

How the results depend on the processing

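With 1 library per group, counting error is known and the spread between cultures is not, and arms under 60 counts (miR-338-3p, miR-3065-5p) have wide intervals. No paired analysis was possible because each group is 1 library and no test was run. Over 30 ratios of the 10 arms, the library total, DESeq2 size factors and a total that omits the 10 most abundant changed no sign and moved none past its counting interval, though miR-3184-5p, at the 1.5-fold edge in 5 min over 3 min, missed it with each of these 3 (0.678 with the library total), and the 3 min interval of miR-374c-3p held 1 with DESeq2 size factors. That interval also held 1 with the filter at 5 counts (1.07, 0.980 to 1.17), under which the interval of miR-3065-3p in 5 min over 3 min lay below 1 (0.720, 0.517 to 0.991). The odds ratios with 0.5 added to each count stayed within their intervals in all 15 cases. Taken over all arms of both hairpins, 12 of 15 partner shares moved by construction: miR-3065-5p held 1.95%, 2.66% and 5.46% in control, 3 min and 5 min, miR-3184-5p 31.1%, 31.8% and 28.3%, miR-3184-3p 10.7%, 15.2% and 14.5%, and miR-374c-3p 45.2%, 43.9% and 48.8%.

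TMM over all listed miRNAs was equal here to TMM with no filter. Its 5 min ratios to control were 0.645 for miR-338-5p, 1.22 for miR-374b-5p and 1.39 for miR-374c-3p. It put 4 of 10 arms at least 1.5-fold lower (40 of the 231 miRNAs), where the main scaling put 0 (27 of the 231). Of 30 signs 2 changed, those of miR-3184-3p after 5 min (0.913) and miR-3184-5p after 3 min (0.992). Under the filter at 5 counts miR-374c-3p stood at 1.49 after 5 min, and miR-423-3p (0.656) and miR-3184-5p (0.657) passed 1.5-fold downward. That was 2 of 10 arms downward, beside 55 of 349 miRNAs, and 1 of 10 upward, miR-3065-5p, beside 85 of 349. Summing partners gave 1.38 for both miR-338-3p and miR-3065-5p after 5 min over control, so the difference between them is lost in the sum, and 1.27 for both miR-374b-5p and miR-374c-3p in 5 min over 3 min.

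Counts of miRNAs past a fold depended on the filter by construction, since more scarce miRNAs enter. With a mean of at least 5 counts, 43 were 1.5-fold higher and 38 lower after 3 min, 85 and 55 after 5 min, and 89 and 45 in 5 min over 3 min; at 2-fold these were 21 and 17, 62 and 25, and 58 and 18. With no filter they were 250 and 213, 346 and 232, and 333 and 230 at 1.5-fold, and 224 and 177, 327 and 200, and 304 and 192 at 2-fold. TMM over all listed miRNAs gave 4 at least 2-fold lower after 3 min, where the main scaling gave 2, and 16 after 5 min, where it gave 8 (18 and 22 higher). In 5 min over 3 min it gave 31 at least 1.5-fold lower, where the main scaling gave 20 (23 and 30 higher), and 4 at least 2-fold lower, where it gave 2. The cause was not tested.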

Other observations

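The RefSeq table places 42 pairs of listed mature arms opposite each other by at least 15 bases. Outside the MIR338, MIR423 and MIR374B loci, 4 of these pairs had an arm past the count requirement. miR-103a-3p and miR-103b, which coincide over all 23 bases, had 248 against 275 counts in control, 213 against 231 after 3 min and 169 against 177 after 5 min. The share of miR-103b was 52.6% (48.2 to 56.9), 52.0% (47.3 to 56.8) and 51.2% (45.8 to 56.5), so this pair, too, was close to an even split. Pairs with offset ends were uneven: miR-3591-3p held 20.3%, 20.9% and 23.2% with the liver miRNA miR-122-5p, miR-3074-5p held 7.63%, 7.05% and 6.80% with miR-24-3p, and miR-3074-3p held 95.3%, 92.96% and 94.5% with miR-24-1-5p. miR-24-3p has a second hairpin with no antisense arm in the table, so its count need not come from that locus alone.

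miR-7-5p and miR-3529-3p, a pair taken from a prepared list, showed a shift in the same direction as miR-338-3p and miR-3065-5p. The overlap of miR-7-5p with miR-3529-3p was not placed in the RefSeq table and was not checked here. Whether all miR-7-5p counts come from the locus of miR-3529-3p was not checked either. miR-3529-3p held 50.8% of their sum in the control library (50.2 to 51.4), 53.2% in the 3 min library (52.5 to 53.8) and 59.4% in the 5 min library (58.5 to 60.2). Its odds over miR-7-5p were 1.42 times those of control after 5 min (1.36 to 1.48). Among listed miRNAs with a sequence, the longest run shared with miR-338-3p was 13 bases of miR-7-5p, and the longest shared with miR-3065-5p was 13 bases of miR-3529-3p. This likeness was noticed after the values were seen and was not tested. miR-7-5p is far more abundant, with 14408, 10701 and 5489 counts against 52, 35 and 22 of miR-338-3p.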
